A study of Mus musculus with 4 samples.

Results

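The genes described here are small nucleolar RNA (snoRNA) host genes: Snhg1, Snhg3, Snhg5, Snhg6, Snhg7, Snhg8, Snhg12, Snhg15 and Gas5, matched by symbol in the platform's annotation. The set was selected on its log2 differences between anti-DR3 and control arrays in these same data. Of these 9 genes, 7 had a probe set annotated to 1 gene symbol, and each of the 7 had 1 such probe set. For Gas5 and Snhg8 the array held only probe sets annotated to several genes, so both are named without values. All 7 measured genes lay above the filter on dim genes, among 12114 genes tested of 22180 with a probe set of 1 symbol. The source was regulatory T cells (Treg), a CD4 lineage defined by the transcription factor Foxp3 that holds immune responses in check, from mice of the strain Foxp3Luci-DTR-4(B6 Albino). The mice had received an antibody that activates death receptor 3 (DR3, the product of Tnfrsf25, a costimulatory receptor of T cells) or an isotype control antibody by injection into the peritoneum. CD4 cells with a green fluorescent Foxp3 reporter were sorted 4 days later, and RNA was measured on 2 arrays per group. The age of the mice and whether the replicates came from separate mice are not given in the labels, so the spread between arrays may be technical. The comparison asks how stimulation of DR3 in vivo bears on the Treg transcriptome.

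A snoRNA host gene is transcribed by RNA polymerase II, and its introns are cut into snoRNAs, short RNAs that guide the chemical modification of ribosomal RNA. Box C/D snoRNAs (Snord genes) guide methylation of the ribose and box H/ACA snoRNAs (Snora genes) guide the change of uridine to pseudouridine. The spliced exons of many noncoding host genes encode no conserved protein and are broken down by nonsense-mediated decay, and the level of a host transcript therefore need not follow that of its snoRNAs. Many host genes, like the genes of ribosomal proteins, begin transcription with a terminal oligopyrimidine tract, a C followed by a run of C and T, and their translation responds to the growth regulator mTORC1.

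Since this contrast chose the genes, their differences are given as a description with no test. On the log2 scale the anti-DR3 arrays lay below both control arrays for Snhg1, Snhg12 and Snhg3 and above both for Snhg5. For Snhg6, Snhg7 and Snhg15 the groups overlapped. The difference, anti-DR3 minus control antibody, was below 0 for 6 of the 7 genes and above 0 for 1, with a median of -0.06. The median was 0.01 over all genes tested and also -0.06 over the 485 long noncoding RNAs tested, the class of these 7 genes. Across all genes tested, both anti-DR3 arrays lay below both control arrays for 24.6% and above both for 31.6%. In limma, 2 of the 7 lay under an unadjusted p of 0.05, as did 3166 of all 12114 genes tested. The unadjusted counts given below for other lists in this fit stand beside that same share. At an adjusted p of 0.05, 0 of the 7 passed, and 5.96% of all genes tested passed, 4.49% higher and 1.47% lower. Of all calls 75.3% were thus higher, or 58.9% with each array centred on the median of its genes tested. In these bulk samples, fewer cells of a kind and less RNA per cell cannot be told apart.

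**Figure D1:**
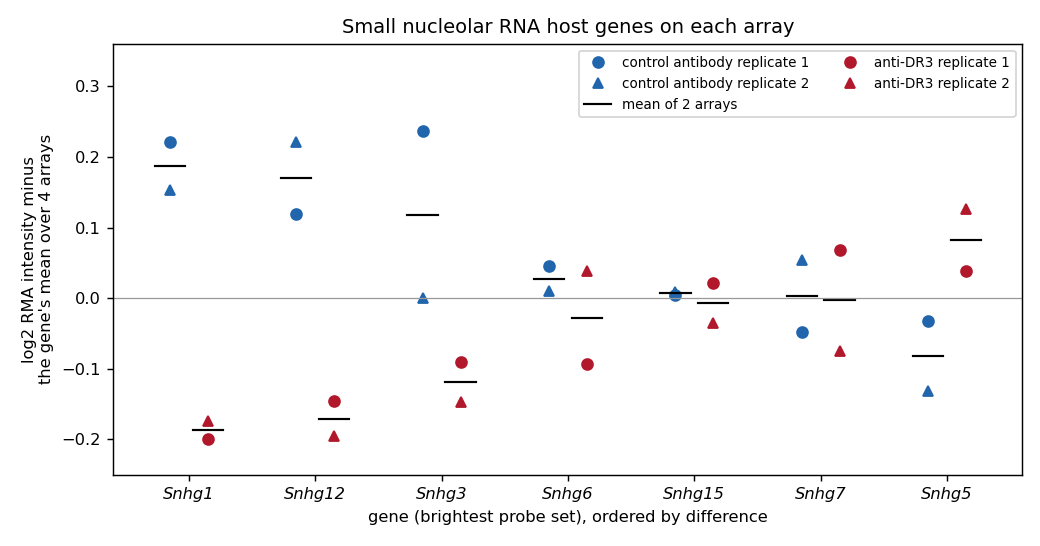
Log2 intensity of each measured host gene on each array, minus that gene's mean over the 4 arrays (vertical axis), with genes in order of their difference. Circles are replicate 1 and triangles replicate 2, blue is control antibody, red is anti-DR3, and bars are means of 2 arrays. The 2 red points lie below both blue points for Snhg1, Snhg12 and Snhg3 and above both for Snhg5.

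Snhg1 (probe set 17357126, Entrez gene 83673, chromosome 19), the host of a cluster of box C/D snoRNAs, gave log2 intensities of 8.37 and 8.40 with anti-DR3 against 8.79 and 8.72 in the controls. Both anti-DR3 arrays were low, and the gap between the nearest arrays of the groups, 0.33, was wider than the larger gap between replicates, 0.07. Its difference was -0.37 ± 0.079 (SE, n = 2 arrays per group), a ratio of 0.772 to the control level. Of the differences of all genes tested, 3.33% lay below it.

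Snhg12 (probe set 17419389, Entrez gene 100039864, chromosome 4), which holds both box H/ACA and box C/D snoRNAs, gave 6.49 and 6.44 with anti-DR3 against 6.76 and 6.86 in the controls. The groups were again apart, by 0.27 between their nearest arrays, against a larger replicate gap of 0.10. The difference was -0.34 ± 0.083 (SE, n = 2 arrays per group), a ratio of 0.790, with 4.30% of all genes tested below it. Snhg3 (probe set 17430824, Entrez gene 399101, also on chromosome 4), the host of the box H/ACA snoRNAs Snora73a and Snora73b, gave 6.25 and 6.20 with anti-DR3 against 6.58 and 6.34 in the controls. Here the control arrays stood 0.24 from each other and only 0.09 separated the groups, so the difference of -0.24 ± 0.10 (SE, n = 2 arrays per group) was about as wide as the gap between the control replicates. It was -0.12 when the first control array was left out and -0.35 when the second was.

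Snhg5 (probe set 17529549, Entrez gene 72655, chromosome 9) is a host of box C/D snoRNAs of the U50 kind. Its log2 intensities were 8.06 and 8.15 with anti-DR3 against 7.99 and 7.89 in the controls. It was the one measured gene with both anti-DR3 arrays high, by 0.07 between nearest arrays against a replicate gap of 0.10. Its difference was 0.16 ± 0.085 (SE, n = 2 arrays per group), a ratio of 1.12, which stood at the 76.0th percentile of all genes tested.

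The other 3 genes differed by less than their replicates did. Snhg6 (probe set 17221186, Entrez gene 73824, chromosome 1), the host of Snord87, gave 7.34 and 7.47 with anti-DR3 against 7.47 and 7.44 in the controls, a difference of -0.06 ± 0.086 (SE). Snhg15 (probe set 17260396, Entrez gene 100041286, chromosome 11) gave 7.46 and 7.41 against 7.45 and 7.45, a difference of -0.01 ± 0.078 (SE). Snhg7 (probe set 17383116, Entrez gene 72091, chromosome 2), a host of box H/ACA snoRNAs, gave 5.75 and 5.61 against 5.64 and 5.74, a difference of -0.0062 ± 0.092 (SE). For these 3 genes the sign of the difference depended on which array was left out. For Snhg7, 3 further probe sets shared with snoRNA genes carry several symbols and were not used.

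The promoters of the genes whose arrays did not overlap are shown because they bear on how alike the genes that were low are to the one that was high. RefSeq windows (GRCm38.p6) running from 250 bases before to 50 after the annotated start matched 6 of the 7 measured genes, Snhg6 being the exception. The 150 bases from 100 before the start onward are printed 5′ to 3′ on the strand of the gene. Capitals mark a terminal oligopyrimidine tract (a C followed by at least 4 pyrimidines, beginning within 10 bases of the start) and the motif TATAAA on either strand.
Snhg1 (chr19:8723387-8723536, plus strand): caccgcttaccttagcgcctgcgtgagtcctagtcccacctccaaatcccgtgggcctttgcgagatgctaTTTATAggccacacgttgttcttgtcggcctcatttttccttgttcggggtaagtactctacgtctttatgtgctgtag
Snhg12 (chr4:132308578-132308727, plus strand): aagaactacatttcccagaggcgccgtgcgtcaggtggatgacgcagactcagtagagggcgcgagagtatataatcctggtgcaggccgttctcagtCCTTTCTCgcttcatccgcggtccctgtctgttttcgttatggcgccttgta
Snhg3 (chr4:132353637-132353786, minus strand): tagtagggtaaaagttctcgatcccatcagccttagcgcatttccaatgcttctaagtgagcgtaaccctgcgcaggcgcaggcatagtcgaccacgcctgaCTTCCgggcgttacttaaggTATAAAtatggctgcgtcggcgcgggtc
Snhg5 (chr9:88522848-88522997, minus strand): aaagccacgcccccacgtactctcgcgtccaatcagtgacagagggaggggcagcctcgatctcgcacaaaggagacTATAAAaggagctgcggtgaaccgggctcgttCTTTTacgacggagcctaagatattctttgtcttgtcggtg

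Counting the annotated start as 0, the tract began at -2 in Snhg12 and ran for 8 bases, at 2 in Snhg3 and at 9 in Snhg5. Snhg7 also had one, a run of 6 bases from -1, while the windows of Snhg1 and Snhg15 held none by this rule. The tract was thus found in 4 of 6 windows, and in 30.7% of 32851 promoters of the same length. A C at the annotated start itself followed by 4 pyrimidines was found in Snhg7 alone, and in 2.51% of all promoters. TATAAA, counted as an exact match, was found in 4 of the 6 windows and in 13.6% of all promoters. It lay at -30 in Snhg7, at -23 in Snhg5, at 22 in Snhg3, and at -29 in Snhg1 on the other strand. The variant tatataa in the Snhg12 window was therefore not counted. The CCAAT motif was in 2 windows (Snhg3 and Snhg5; 37.4% of all promoters), the ETS motif CGGAAG in 2 (the same genes; 16.9%) and the E-box CACGTG in 1 (Snhg15; 7.15%), each counted on both strands. In Snhg3 the CGGAAG match and the tract overlap on opposite strands. By these rules Snhg5, the gene with high anti-DR3 arrays, shared a tract near the start, though not exactly at it, with Snhg12 and Snhg3. Snhg5 shared TATAAA, on either strand, with Snhg1 and Snhg3.

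The snoRNAs cut from these genes have probe sets of their own. In the RefSeq gene table, read for which genes lie inside which and without strand, 29 snoRNA genes lay inside the 9 host genes, and 9 of them, in 5 hosts, had a probe set of 1 symbol. For all 9 the anti-DR3 mean was lower, with a median difference of -0.46 and a range from -0.73 to -0.15. Both anti-DR3 arrays lay below both control arrays for 8 of the 9, beside 64 of all 74 snoRNAs tested and 24.6% of all genes tested. These values come from the same contrast and are given with no test.

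Inside Snhg12, the box H/ACA snoRNA Snora44 gave 9.08 and 8.98 with anti-DR3 against 9.94 and 9.59 in the controls, a difference of -0.73 ± 0.13 (SE). Its neighbour Snora16a gave 10.36 and 10.42 against 11.11 and 10.89, a difference of -0.62 ± 0.10 (SE). Snora61 differed by -0.67 ± 0.25 (SE), with 8.34 and 7.60 against 8.80 and 8.48. All 3 differed by more than their host's -0.34, whereas the box C/D snoRNA Snord99 of the same gene differed by -0.31 ± 0.10 (SE).

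Inside Snhg1, Snord22 gave 12.31 and 12.21 with anti-DR3 against 12.72 on both control arrays, a difference of -0.46 ± 0.082 (SE) beside the host's -0.37. Snora73a and Snora73b, of Snhg3, differed by -0.31 ± 0.14 and -0.24 ± 0.14 (SE), and the arrays of Snora73b overlapped. Snord87, of Snhg6, gave 11.71 and 11.68 with anti-DR3 against 12.20 and 12.13 in the controls. Its difference was -0.47 ± 0.079 (SE), while that of Snhg6 itself was -0.06. Snord47, of Gas5, differed by -0.15 ± 0.087 (SE). Of the 8 snoRNAs whose host was measured, 6 lay further below 0 than the host. All 74 snoRNAs tested had a median of -0.50, itself below the lowest host difference of -0.37.

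**Figure D2:**
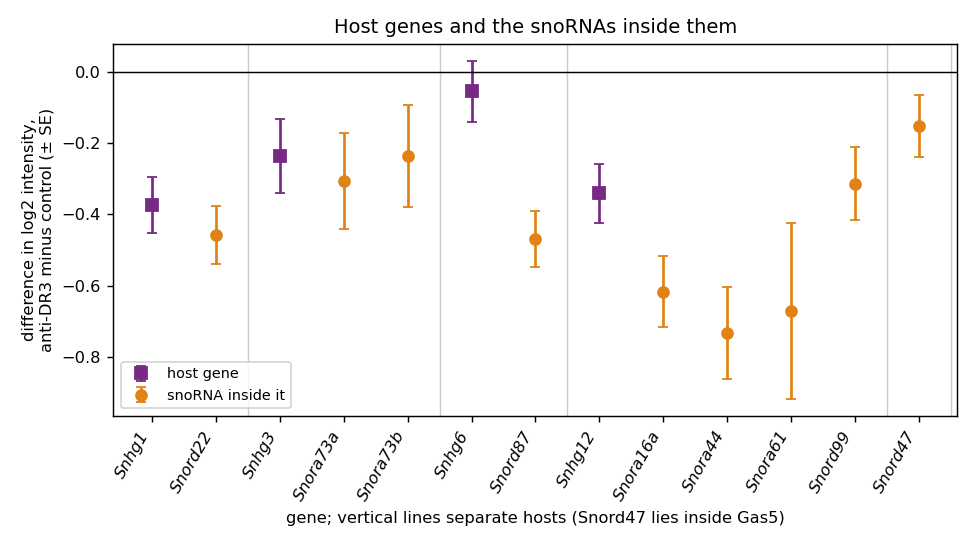
Difference in log2 intensity, anti-DR3 minus control antibody, with its SE (vertical axis, n = 2 arrays per group), for host genes (purple squares) and the snoRNAs inside them (orange circles). All 9 snoRNAs lie below 0, and Snord87 at -0.47 stands apart from its host Snhg6 at -0.06.

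Lower signals were not particular to the snoRNAs of these hosts. Of 78 snoRNA genes (symbols beginning with Snord, Snora or Scarna) 74 were tested, and limma called 40 lower and 0 higher, leaving 34 uncalled. The median was -0.50, and 72 of the 74 lay below 0. The anti-DR3 arrays lay below the controls without overlap for 64 of the 74, and the 40 falls stand beside 1.47% of all genes tested that fell. They made up 22.5% of the 178 falls in the data. Leaving out the 9 snoRNAs of the described hosts gave 36 falls and a median of -0.53.

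Snord111 fell by 0.999 ± 0.11 (SE) on the log2 scale (adjusted p = 0.0123, limma), and Snord71 by 0.89 ± 0.076 (adjusted p = 0.0099). Snord11 fell by 0.83 and Snora69, of the box H/ACA kind, by 0.78 (adjusted p = 0.0114 for both, limma). Of 44 box C/D snoRNAs 26 fell, of 25 box H/ACA snoRNAs 11, and of 5 snoRNAs of Cajal bodies (Scarna genes, which guide modification of spliceosomal RNA) 3. The 40 calls rested on all 4 arrays: limma called 0 snoRNAs lower without either anti-DR3 array (where 52 and 48 were lower at an unadjusted p under 0.05). It called 2 and 17 when the first and the second control array were left out. With no filter on dim genes (22180 genes fitted), 0 of the 40 were called (58 snoRNAs lower at an unadjusted p under 0.05). The reason was not tested. In the 4 fits without 1 array, 69 to 72 of the 74 lay below 0, and the median ran from -0.59 to -0.45.

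**Figure D3:**
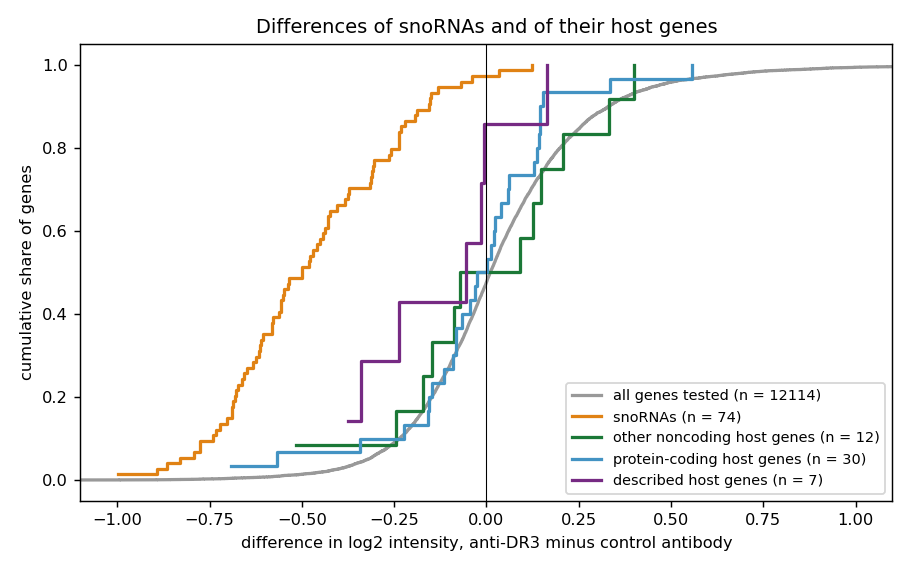
Cumulative share of genes (vertical axis) against the difference in log2 intensity, anti-DR3 minus control antibody, for all genes tested, snoRNAs and 3 sets of host genes. The curve of the 74 snoRNAs lies to the left, with a median of -0.50. Those of the other noncoding and the protein-coding host genes (medians 0.01 and -0.01, the latter list without Nop56) lie near that of all genes. The described hosts (median -0.06) lie between.

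Host genes outside the set did not move one way. Of 12 other noncoding snoRNA host genes tested, 1 fell and 0 rose, 4 lay under an unadjusted p of 0.05, and the median was 0.01. Snhg17 gave 7.73 and 7.71 with anti-DR3 against 8.17 and 8.30 in the controls and fell by 0.51 ± 0.085 (SE, adjusted p = 0.0298, limma). Its other probe sets differed by -0.33 and -0.02, and the mean of all 3 was not called (-0.29, adjusted p = 0.126, limma). The call was also lost with each array left out (adjusted p = 0.074 to 0.18) and with no filter on dim genes (adjusted p = 0.124). Zfas1 lay on the other side, with 8.33 and 8.21 with anti-DR3 against 7.93 and 7.81 in the controls, a difference of 0.40 ± 0.091 (adjusted p = 0.0632, limma). The host 2410006H16Rik differed by 0.33 ± 0.11 (adjusted p = 0.121), while the 3 box C/D snoRNAs inside it, Snord49a, Snord49b and Snord65, differed by -0.50, -0.58 and -0.48 (adjusted p = 0.0644, 0.0521 and 0.0373, limma, so that Snord65 alone passed).

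**Figure D4:**
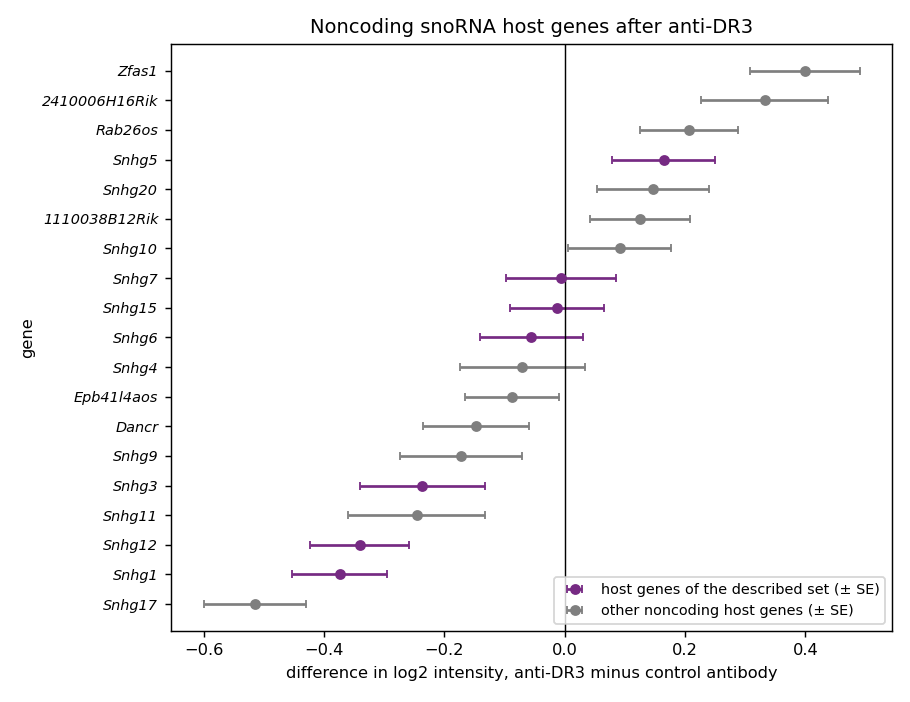
Difference in log2 intensity with its SE (horizontal axis, n = 2 arrays per group) for the 7 described host genes (purple) and 12 other noncoding host genes (grey), in order. Values run from -0.51 for Snhg17 to 0.40 for Zfas1, and the described genes span -0.37 to 0.16.

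Of 30 listed protein-coding genes that hold snoRNAs, 1 fell and 0 rose, 5 lay under an unadjusted p of 0.05 in limma, and the median was -0.01. The list leaves out hosts counted in other lists, such as Nop56, which also fell (by 0.47, adjusted p = 0.0389, limma). The listed gene that fell was Ppan, a ribosome assembly factor, by 0.57 ± 0.098 (SE, adjusted p = 0.033, limma), with -0.06 at its other probe set. Rps20, a ribosomal protein gene, differed by -0.69 ± 0.15 (adjusted p = 0.0561), with -0.08 at a dimmer probe set, and Rpl17 by 0.56 ± 0.14 (adjusted p = 0.0749). Ribosomal proteins outside that list had 0 calls among 40 (6 under an unadjusted p of 0.05), with a median of -0.04. Translation factors with a terminal oligopyrimidine start had 1 rise among 11, Eif3h, by 0.41 ± 0.082 (adjusted p = 0.0455, limma), and a median of 0.02.

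The proteins that bind snoRNAs were also examined. Of 4 box C/D core proteins tested 2 fell, namely Nop56 by 0.47 ± 0.087 (SE, adjusted p = 0.0389) and Nop58 by 0.45 ± 0.088 (adjusted p = 0.0441, limma), both scaffold proteins of the particle. Nop56 is itself a snoRNA host, and its other probe sets differed by -0.63 and -0.48. Snu13, which binds the kink-turn of the snoRNA, differed by 0.27 ± 0.13 (adjusted p = 0.249), with -0.12 at its other probe set. Of 4 box H/ACA core proteins 0 passed (1 under an unadjusted p of 0.05). Dkc1, the pseudouridine synthase dyskerin, differed by -0.21 ± 0.082 (adjusted p = 0.171). Assembly factors had 0 calls among 13 (2 under an unadjusted p of 0.05), with Nolc1, a chaperone of the nucleolus, at -0.30 ± 0.077 (adjusted p = 0.0765).

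Of 41 genes of ribosomal RNA processing and ribosome assembly 2 fell and 0 rose, while 39 were not called, and the median was -0.10. The falls were Mybbp1a, by 0.45 (adjusted p = 0.0455), and the nucleolar gene Gnl3, by 0.43 (adjusted p = 0.049, limma). Both anti-DR3 arrays lay below both control arrays for 19 of the 41, beside 24.6% of all genes tested. Of the 41, 6 lay under an unadjusted p of 0.05 in limma. RNA polymerase I and its factors had 0 calls among 15 (4 under an unadjusted p of 0.05) and a median of 0.02, with the largest subunit, Polr1a, at -0.37 ± 0.078 (adjusted p = 0.0534). Myc and its partners had 0 among 9 (2 unadjusted), with Myc at -0.35 ± 0.10 (adjusted p = 0.107, limma).

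Nonsense-mediated decay factors had 0 calls among 17 (3 under an unadjusted p of 0.05) and a median of -0.01. Smg1, the kinase of the pathway, differed by -0.40 ± 0.085 (adjusted p = 0.0544, limma). Among 16 transcripts known to be decay targets 0 passed (6 unadjusted), with a median of 0.01. Of 16 components of mTORC1 and its inputs 1 fell, Rptor, by 0.43 ± 0.089 (adjusted p = 0.0493), and the median was -0.0053. Together these lists other than snoRNAs held 8 called genes. Limma called 0 of the 8 in each fit without 1 array.

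Some other measures moved with the groups. Of 17 mitosis genes tested 13 rose and 0 fell in limma, but 4 of the 13 (Ccna2, Kif15, Nuf2 and Nusap1) were below the array median on both control arrays, so they were tested only through the anti-DR3 arrays. The other 9 included Mki67, by 1.78, and Ccnb2, by 1.54. With 1 array left out 0 to 13 rose, the 0 without anti-DR3 replicate 2. None of the host genes, and none of the 74 snoRNAs, was tested through 1 group only. Foxp3 lay between 11.81 and 11.93 on the 4 arrays, and Tnfrsf25 differed by 0.17 ± 0.093 (adjusted p = 0.305, limma). Of 8 Treg markers Ikzf2 rose and Il2ra fell. Both calls rested on all 4 arrays. Limma also called neither gene with no filter on dim genes, nor Il2ra with quantile normalization. The differences of Ikzf2 and Il2ra ran from 0.52 to 0.60 and from -0.56 to -0.42 over 12 alternative fits. Of 3 B cell markers tested, of 7 with a probe set, Ighm rose by 0.63, and the summed intensity of the 7, most of it from Ighm, was 4257 and 4476 with anti-DR3 against 2790 and 3016 in the controls. Other probe sets of Ighm differed in both directions, from -0.36 to 1.18, and the mean of its probe sets was not called (0.17, adjusted p = 0.25, limma). Of the other 6 B cell markers, 5 overlapped between the groups (Cd22, Cd79a, Cd79b, Ms4a1 and Pax5). The remaining marker, Fcrla, was dim and so was not tested. Of 2 CD8 T cell markers Cd8b1 was tested and rose, and Cd8a was dim, with overlapping groups; the summed intensity of both was 224 and 240 against 173 and 168. Of 3 monocyte and macrophage markers tested, of 6, Csf1r rose by 0.42, while Adgre1 and Fcgr1, both dim, differed by -0.34 and -0.32. The summed intensity of the 6 was 314 and 345 against 277 and 314. Limma called neither Cd8b1 nor Csf1r with any 1 array left out, with no filter on dim genes or with centred arrays. The single natural killer cell marker tested did not pass, and all 4 dendritic cell and all 4 neutrophil markers with a probe set were dim, and no erythroid marker had a probe set of 1 symbol. The part of other cells and of dividing cells in the values of the host genes was not tested.

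Over the 4 arrays, the genes whose profile lay closest to the mean profile of the 7 host genes were Nrd1, Tfb1m, Dido1, Ddhd2 and Htatsf1, at root mean square distances of 0.0032 to 0.0086 on the log2 scale. With only 4 arrays, 1038 genes lay within 0.05, so closeness on this measure was common.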

How the data were processed

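Per the submitters' processing notes the authors used robust multi-array average (RMA). The deposited values are linear intensities, 1 for each probe set. The version of RMA is not given in the sources used here. RMA normalizes arrays to a shared distribution, which can hide a change common to all genes. Total RNA was isolated on columns and labelled with biotin, per the labels' protocols; how much short RNA was kept was not measured. Values were converted to log2; array medians were 40.2 to 42.0 on the linear scale. Of 41345 probe sets 23521 had 1 gene symbol, 1814 several and 16010 none listed; probe sets with several symbols were not used. Each gene was represented by its brightest probe set and tested if above the array median on at least 2 of the 4 arrays. The groups' log2 values were tested by lmFit and eBayes of limma 3.58.1 (R 4.3.3, two-sided), with Benjamini-Hochberg adjustment over 12114 genes, a threshold of 0.05, 2 residual and 3.94 prior degrees of freedom. An exact permutation test of 2 arrays against 2 cannot go below p = 0.333. The number of arrays limits precision. The code was tested on simulated data. Listed genes were named by the largest moderated statistic, up to 4 per list, with every called gene where a list had 5 or fewer. The RefSeq table has no strand, so snoRNAs were placed in hosts by position alone. Members and lists were chosen with earlier results of these data known. Promoter sequences are from RefSeq (GRCm38.p6).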

Additional observations from a re-analysis of the deposited data

How the results depend on the processing

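The signs of Snhg1, Snhg12, Snhg3 and Snhg5 were the same in all 12 alternatives, with ranges of -0.43 to -0.34, -0.40 to -0.29, -0.35 to -0.12 and 0.10 to 0.21, while Snhg6 ran from -0.12 to 0.01, Snhg15 from -0.07 to 0.01 and Snhg7 from -0.08 to 0.06. The number of host genes under an adjusted p of 0.05 in limma is no test of genes selected on this contrast. It was 2 of 6 under the stricter filter (13.3% of all genes tested there). It was 1 of 7 each with arrays centred on the median of genes tested (4.88%), with quantile normalization (5.05%) and with a trended robust prior (11.9%). The median of the host genes was -0.15 under the stricter filter, -0.12 with centred arrays, -0.092 with quantile normalization, and ran from -0.1211 to -0.0567 with each array left out. With each array left out, which takes the remaining single array to have the spread of the opposite group, the calls numbered 0 to 312 (higher 0 to 245, lower 0 to 67), and snoRNAs called lower 0 to 17 with medians of -0.59 to -0.45; the fit with 0 genes, without anti-DR3 replicate 2, had 1967 under an unadjusted p of 0.05. With no filter on dim genes limma called 14 genes, 14 higher and 0 lower, and 0 snoRNAs (3573 genes, and 58 snoRNAs lower, under an unadjusted p of 0.05). The stricter filter gave 1157 (860 higher, 297 lower) and the trended robust prior 1444 (1082 and 362). Centred arrays gave 348 higher and 243 lower, or 58.9% of calls higher against 75.3% of the 722 as deposited. The causes were not tested. No label ties a replicate number to a shared mouse, batch or day, and the gap between replicates in 1 group correlated with that in the other at 0.051 over genes, with 2 pairs. With the replicate block 563 genes were called (430 higher, 133 lower), among them 36 snoRNAs, 0 of the described host genes and 2 of the 8 called genes of the other lists. The alternative without the snoRNAs of the described hosts was chosen after seeing the data.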

Other observations

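After the falls of the snoRNAs had been seen, other classes of short RNA were counted in the same fit, so this comparison was chosen after seeing the data. Of 144 miRNA genes tested 5 fell and 0 rose in limma, with a median log2 difference of -0.12. Of 11 other short noncoding RNAs 2 fell and 0 rose. These were Rnu3a, by 0.42 (adjusted p = 0.0376), and Rpph1, the RNA of ribonuclease P, by 0.51 (adjusted p = 0.0278, limma). Rnu3a encodes U3, a box C/D RNA of ribosomal RNA processing. Rn7sk, which restrains transcription elongation, gave 13.54 and 13.55 with anti-DR3 against 13.49 and 13.53 in the controls, a difference of 0.04. The 5S ribosomal RNA gene n-R5s136 differed by 0.30 (adjusted p = 0.0898), the telomerase RNA Terc by 0.01 and the Y RNAs Rny1 and Rny3 by -0.19 and -0.20, with overlapping groups for the last 3. Long noncoding RNAs, the class of the host genes, had 14 rises and 7 falls among 485, with a median of -0.06, and 11148 protein-coding genes had a median of 0.02.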
